A study of Mus musculus with 12 samples.

Results

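The 10 genes described here belong to the canonical Wnt pathway and were followed in RNA-Seq values of mouse osteoblasts, in 12 libraries. They were taken by name: the transcription factors *Tcf7*, *Lef1*, *Tcf7l1* and *Tcf7l2*, the feedback genes *Axin2*, *Nkd2* and *Notum*, the transducer *Ctnnb1* and the co-receptors *Lrp5* and *Lrp6*. All 10 were listed in every library, among 23284 gene names in the osteoblast files and 24346 in those of MC3T3-E1 cells. The vehicle and PTH groups, with 3 libraries each, were osteoblasts of female Col2.3-ECFP mice, aged 12 weeks, that were given PBS vehicle or human PTH(1-34) at 40 µg/kg per day. Injections were given on 5 days per week for 3 weeks, and cells were taken 24 h after the last one by a 7AAD-Lin-CD45-ECFP+ sort. All of these mice carry ECFP under a type I collagen promoter, so the gate takes cells in which that promoter is active. The mock and *Slpi* groups, also with 3 libraries each, were subconfluent MC3T3-E1 cells, a mouse calvarial pre-osteoblast line, with the empty retrovirus pMX-IRES-Puro or with pMX-*Slpi*-IRES-Puro. Both were selected with puromycin as stable transformants. *Slpi* encodes a secreted inhibitor of leukocyte serine proteases. The methods state for the study in general that biological replicates were taken from different animals, but not how many mice were used for each osteoblast library. For MC3T3-E1 cells nothing says whether the libraries came from separate infections or cultures, so their p values measure a spread that may be technical.

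In canonical Wnt signaling, a Wnt ligand binds a Frizzled receptor together with LRP5 or LRP6, and the complex that marks β-catenin for degradation is held back. β-catenin, the product of *Ctnnb1*, then enters the nucleus and works with TCF/LEF proteins, which bind DNA at short motifs built on CTTTGA. *Axin2*, *Nkd2* and *Notum* are known targets of the pathway whose products dampen it: AXIN2 is a scaffold of the degradation complex, NKD2 binds dishevelled, and NOTUM is a secreted enzyme that removes the lipid from Wnt ligands. The pathway is known in bone for its part in bone mass, and LRP5 for human disorders of bone density.

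The sequences just upstream of *Axin2*, *Nkd2* and *Lef1* are shown as examples from the 4 genes that rose at least 2-fold in *Slpi*-overexpressing cells. The fourth, *Tcf7*, had 2 windows in the same table, neither with the motif described here, and they are not printed. They are the 250 bases before annotated starts (RefSeq, GRCm38.p6), 5′ to 3′ on the strand of the gene. Capitals mark CTTTGA or its reverse complement TCAAAG, searched on both strands.
*Axin2*, chr11:108920099-108920348, plus strand: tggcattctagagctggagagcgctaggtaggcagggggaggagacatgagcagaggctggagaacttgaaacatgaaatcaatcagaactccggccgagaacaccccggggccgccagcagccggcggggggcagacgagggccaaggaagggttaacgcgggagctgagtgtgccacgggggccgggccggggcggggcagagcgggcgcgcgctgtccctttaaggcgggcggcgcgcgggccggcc
*Nkd2*, chr13:73847632-73847881, minus strand: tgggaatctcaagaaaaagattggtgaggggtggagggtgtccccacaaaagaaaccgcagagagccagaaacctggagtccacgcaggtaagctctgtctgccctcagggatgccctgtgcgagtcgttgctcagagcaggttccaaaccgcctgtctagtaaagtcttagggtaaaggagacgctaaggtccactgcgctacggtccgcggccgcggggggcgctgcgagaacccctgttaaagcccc
*Lef1*, most upstream start, chr3:131110047-131110296, plus strand: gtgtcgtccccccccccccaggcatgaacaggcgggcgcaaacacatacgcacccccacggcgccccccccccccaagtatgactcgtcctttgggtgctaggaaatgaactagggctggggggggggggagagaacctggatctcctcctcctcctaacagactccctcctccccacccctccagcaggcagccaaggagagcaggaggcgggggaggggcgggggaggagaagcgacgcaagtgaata
*Lef1*, start inside the gene, chr3:131156044-131156293, plus strand: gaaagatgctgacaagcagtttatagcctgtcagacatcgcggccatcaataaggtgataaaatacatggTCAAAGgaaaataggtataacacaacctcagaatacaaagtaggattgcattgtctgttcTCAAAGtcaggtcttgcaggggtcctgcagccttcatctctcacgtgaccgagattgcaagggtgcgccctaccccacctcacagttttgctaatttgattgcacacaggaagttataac

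The table of starts held 13 such windows for 7 of the 10 genes. Only the window of the internal *Lef1* start held the motif, with 2 matches. The other 3 *Lef1* windows, including that of the start nearest to the 5′ end in GENCODE, held none. Over all 32851 windows of the same length, 13.8% held CTTTGA and 3.21% held the longer CTTTGAT, which none of the 13 did. The windows of the *Axin2* and *Nkd2* starts had no match in these letters, and elements farther away were not searched.

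Values are FPKM, fragment counts normalised for transcript length and sequencing depth, which allow levels of different genes to be compared within a library. The 2 experiments were kept apart, since they differ in cells and, per the labels, in library kit. Within an experiment, groups were compared with limma on log2(FPKM + 1). The test covered every gene that reached an FPKM of 1 in any of the 6 libraries, which gave 13004 genes for osteoblasts and 11466 for MC3T3-E1 cells. A gene was counted as changed at a Benjamini-Hochberg adjusted *p* under 0.05 over all of them, and log2 fold changes on this scale understate those of low genes. For 1 gene, exact permutation of 3 against 3 libraries has a smallest two-sided *p* of 0.10.

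Markers of osteoblasts and of other cell types were measured in the same libraries. Of 10 osteoblast markers, *Sp7*, *Runx2*, *Bglap*, *Alpl*, *Ibsp*, *Spp1*, *Phex* and *Dmp1* were at 29.65 FPKM or more in all 6 sorted libraries. *Col1a1* and *Col1a2*, the type I collagen genes, were at 26220 and 26650 FPKM in vehicle replicate 1 and at 24170 and 24540 in vehicle replicate 2 but listed at 0 in the other 4 libraries. A 0 in a file of FPKM can be an estimate that failed, so these zeros cannot be read as absent transcripts. Summed FPKM of 12 T cell markers was 112 to 174 with vehicle and 1.53 to 22.4 with PTH. Summed neutrophil markers ran the other way, from 388 to 484 with vehicle and from 705 to 2370 with PTH, and 4 megakaryocyte markers summed to 177 and 142 in PTH replicates 1 and 2 but to 4.56 or less in the other 4 libraries. Markers of NK cells summed to between 15.7 and 26.7 with vehicle and between 0.369 and 10.9 with PTH. Only *Klrd1* and *Nkg7* of these 5 markers were tested. *Klrd1* was lower with PTH, at means of 16.7 FPKM with vehicle and 1.60 with PTH. *Nkg7* was not called, at means of 3.69 and 3.85. Of 5 heart muscle markers, the sum was 1300 in PTH replicate 2 and 9.74 or less elsewhere. In MC3T3-E1 cells, each T cell marker was under 1 FPKM in all 6 libraries. Of 9 osteoblast markers tested there, 6 were higher and 1 lower with *Slpi*, beside 31.9% and 28.9% of all genes tested. The widest rises were those of *Ibsp*, *Alpl* and *Sp7*, with log2 fold changes of 3.22, 1.71 and 1.49, and *Spp1* fell by -0.39. Depth cannot be read from FPKM. As a rough guide, the commonest ratio of values under 1 FPKM to those of replicate 1 of vehicle or mock was taken. It gave relative depths of 0.787 to 1.40 in osteoblasts and 0.868 to 1.00 in MC3T3-E1 cells.

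In vehicle-treated osteoblasts, *Ctnnb1* had the highest level of the 10 genes, at 223 ± 15.5 FPKM (SD, n = 3), followed by *Tcf7* at 74.9 ± 9.45 (SD, n = 3) and *Lrp5* at 39.8 ± 5.21 (SD, n = 3). *Lrp6* was next at 9.35 ± 0.500 (SD, n = 3), above *Nkd2*, *Tcf7l1*, *Notum* and *Tcf7l2*, whose means lay between 5.10 and 7.04 and whose libraries overlapped from each gene to the next in order. *Lef1*, at 3.05 ± 0.428 (SD, n = 3), and *Axin2*, at 2.45 ± 0.140 (SD, n = 3), were lowest and did not overlap. In mock MC3T3-E1 cells the first 5 were *Ctnnb1*, *Lrp5*, *Tcf7l1*, *Lrp6* and *Tcf7l2*, none of which overlapped the next. *Axin2*, *Notum* and *Tcf7* followed at means between 2.34 and 2.78 with overlapping libraries. *Lef1* and *Nkd2* were below 1 FPKM in every mock library.

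**Figure D1:**
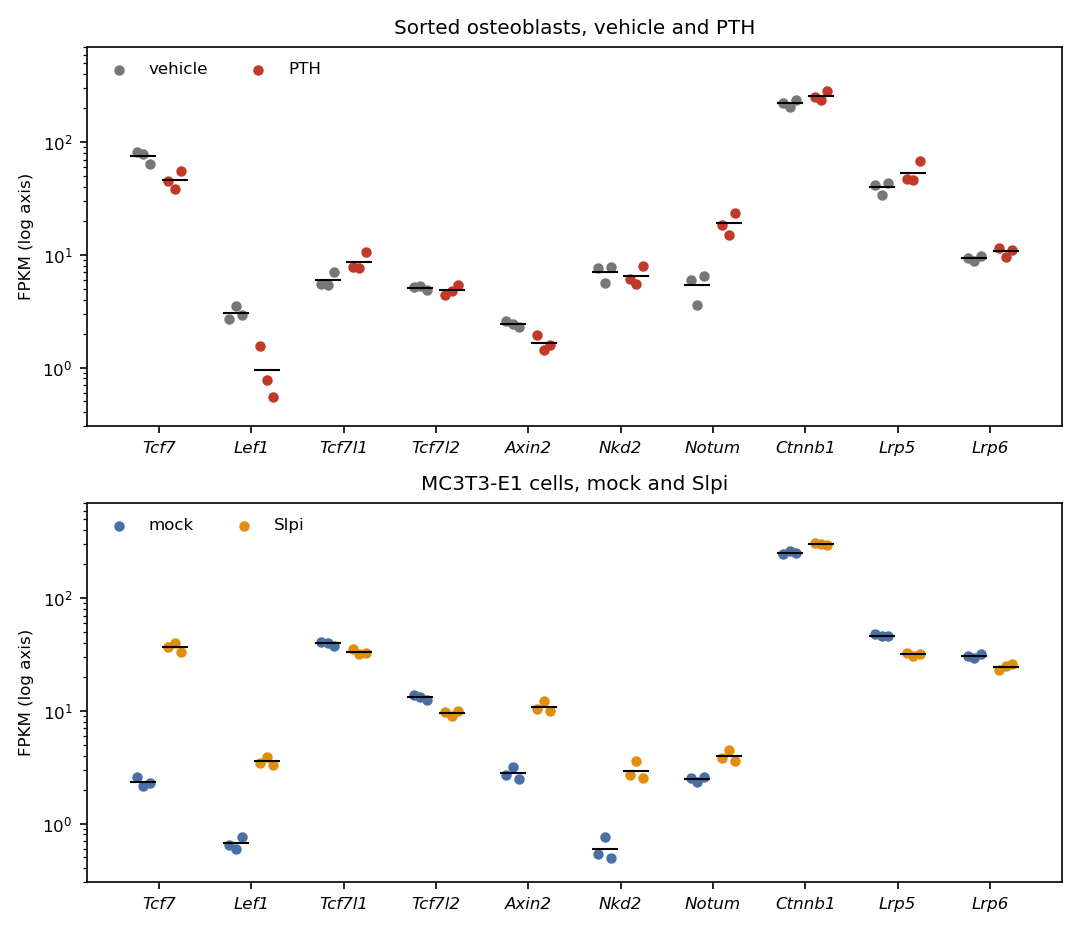
FPKM of the 10 genes on a log axis, one point per library (3 per group) with a line at the group mean; vehicle and PTH osteoblasts are above, mock and *Slpi* MC3T3-E1 cells below. *Tcf7* and *Lef1* lay lower and *Notum* higher in PTH libraries, and all 10 genes separated the *Slpi* from the mock libraries, *Tcf7* by the widest gap.

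To see how PTH bears on these genes, PTH-treated osteoblasts were set against vehicle-treated ones. *Notum* rose and *Tcf7* and *Lef1* fell, while the other 7 genes did not pass the test. Of all genes tested, 6.38% were higher and 8.85% lower, or 15.2% in either direction, so that 1 of 10 and 2 of 10 are counts close to this background. *Notum* rose and *Lef1* fell at least 2-fold, as 0.869% and 3.78% of all genes tested did. The median log2 fold change of the 10 genes was 0.06, against 0.0066 over all genes tested. Groups did not overlap for 4 higher genes (*Notum*, *Tcf7l1*, *Lrp5* and *Ctnnb1*) and 3 lower ones (*Tcf7*, *Lef1* and *Axin2*), beside 19.5% and 20.9% of all genes tested. *Slpi* itself rose from 2.21 ± 0.513 to 28.2 ± 8.88 FPKM (SD, n = 3 each), with an adjusted *p* of 0.0131.

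*Notum* lies on chromosome 11 of mm10, from 120653788 to 120661175, minus strand. Its FPKM was 5.96, 3.62 and 6.52 in vehicle replicates 1 to 3 and 18.5, 15.0 and 23.5 in PTH replicates 1 to 3. Each PTH library was thus above each vehicle library, with the lowest value of both groups in replicate 2. The mean was 3.55-fold higher, and the log2 fold change was 1.66 (SE 0.232, limma adjusted *p* = 0.0142), the 59th highest of the 13004 genes tested. Without vehicle replicate 1 or vehicle replicate 2 the adjusted *p* was 0.0734 and 0.0736, with log2 fold changes of 1.74 and 1.45. Exons of *Notum* overlap those of the opposite-strand genes *Notumos* and *Myadml2os*, and reads of an unstranded kit, such as the one named for these libraries, cannot be split between them.

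*Tcf7*, which encodes TCF1, lies on chromosome 11 from 52252371 to 52283014, minus strand. It stood at 81.8, 78.7 and 64.1 FPKM with vehicle and at 45.5, 38.6 and 55.4 with PTH. The groups did not overlap, and PTH replicate 3 was the closest to the vehicle libraries. The vehicle mean was 1.61 times the PTH mean, with a log2 fold change of -0.68 (SE 0.159, limma adjusted *p* = 0.0352). The call was lost without vehicle replicate 1 (adjusted *p* = 0.129), vehicle replicate 2 (0.126), PTH replicate 1 (0.0937) or PTH replicate 2 (0.0576), with log2 fold changes from -0.68 to -0.56.

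*Lef1* lies on chromosome 3 from 131110471 to 131224356, plus strand. Its FPKM was 2.71, 3.53 and 2.91 with vehicle and 1.55, 0.777 and 0.546 with PTH. All PTH libraries were below all vehicle libraries, and only PTH replicate 1 of that group exceeded 1 FPKM. The vehicle mean was 3.18 times the PTH mean, with a log2 fold change of -1.08 (SE 0.225, limma adjusted *p* = 0.0281). Without vehicle replicate 1, 2 or 3 or PTH replicate 2, the adjusted *p* was 0.0975, 0.109, 0.0567 and 0.0526, with log2 fold changes from -1.14 to -0.99. Exons of *Lef1* overlap those of the opposite-strand *Gm43352*, which was not listed in the libraries.

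*Tcf7* and *Lef1* are also well known as genes of T cells, and most of the T cell markers fell in the same libraries. Of the 12 markers, 10 were tested and 8 were lower with PTH, beside 8.85% of all genes tested. Of these 8, *Cd3d*, *Cd28* and *Il7r* passed the filter only through the vehicle libraries. *Cd2* and *Bcl11b* were tested but not called. *Cd247* and *Cd5* stayed under 1 FPKM in every library, and *Cd5* was listed at 0 in all vehicle libraries. The sum of the 12 markers was 174, 172 and 112 FPKM in vehicle replicates 1 to 3 and 18.2, 22.4 and 1.53 in PTH replicates 1 to 3. *Cd3g* alone was at 97.5, 87.3 and 60.4 FPKM in the vehicle libraries. *Cd3e* and *Cd3g*, which encode chains of the T cell receptor complex, were listed at 0 in PTH replicate 3, where *Tcf7* was at 55.4, the highest of the PTH libraries, and *Lef1* at 0.546, the lowest. The Lin-CD45- gate is meant to remove T cells, which carry CD45. In bulk libraries such as these, fewer cells of a type and less RNA per cell cannot be told apart. The part of T cell transcripts in the lower values of *Tcf7* and *Lef1* was not tested.

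**Figure D2:**
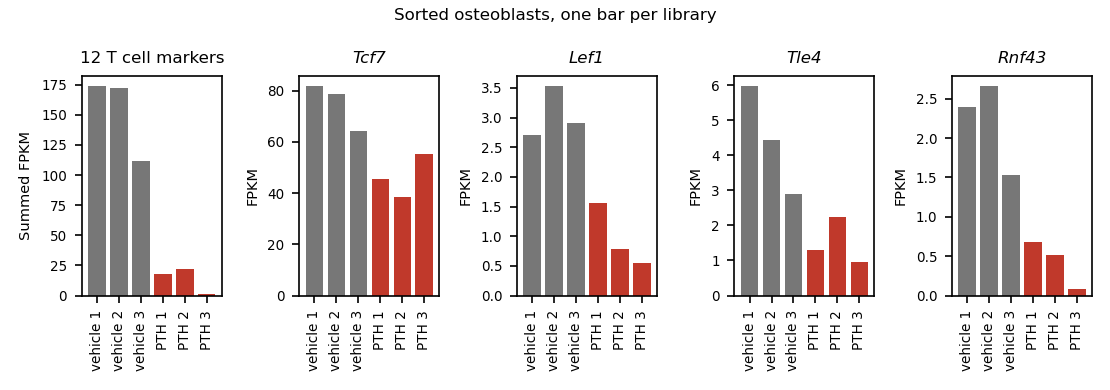
FPKM in the 6 libraries of sorted osteoblasts, one bar per library, for the sum of 12 T cell markers and for the 4 Wnt pathway genes that were lower with PTH (*Tcf7*, *Lef1*, *Tle4* and *Rnf43*). PTH replicate 3 had the lowest sum of T cell markers, 1.53, and the lowest *Lef1*, *Tle4* and *Rnf43* of all libraries, but the highest *Tcf7* of the PTH libraries.

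The other TCF factors did not pass the test in osteoblasts. *Tcf7l1*, whose product TCF3 is known mainly as a repressor, lies on chromosome 6 from 72626378 to 72789254, minus strand. It was at 5.52, 5.41 and 7.03 FPKM with vehicle and at 7.73, 7.66 and 10.7 with PTH. The groups did not overlap, but the log2 fold change of 0.47 (SE 0.168) had a limma adjusted *p* of 0.104. The opposite-strand *Gm15401*, whose exons overlap those of *Tcf7l1*, was at 0.387 to 4.69 FPKM in these libraries, and an unstranded kit cannot split their reads. *Tcf7l2*, which encodes TCF4 and lies on chromosome 19 from 55741820 to 55933654, plus strand, had 5.14, 5.28 and 4.87 FPKM with vehicle and 4.40, 4.80 and 5.45 with PTH. These overlapped, and the interval of the log2 fold change ran from -0.35 to 0.24 (95%, limma adjusted *p* = 0.777).

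Of the remaining feedback genes, *Axin2* lies on chromosome 11 from 108920349 to 108950783, plus strand. It was at 2.59, 2.45 and 2.31 FPKM with vehicle and at 1.93, 1.42 and 1.60 with PTH. Its exons overlap those of the opposite-strand *Gm11670*, which was not listed in the libraries. Each PTH library was below each vehicle library, and the log2 fold change was -0.38 (SE 0.152, limma adjusted *p* = 0.128). *Nkd2*, on chromosome 13 from 73818534 to 73847631, minus strand, had 7.63, 5.67 and 7.83 FPKM with vehicle and 6.12, 5.46 and 7.92 with PTH. Its groups overlapped, and the 95% interval of the log2 fold change was -0.52 to 0.31 (limma adjusted *p* = 0.707). Thus *Notum* alone of the 3 feedback genes was called with PTH.

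The transducer and co-receptors had intervals that reached below 0. *Ctnnb1*, on chromosome 9 from 120929216 to 120960507, plus strand, was at 225, 206 and 237 FPKM with vehicle and at 251, 238 and 286 with PTH, groups that lay just apart, and the overlapping opposite-strand gene *Ulk4* was at 0.259 FPKM or less. The log2 fold change was 0.21 (95% interval -0.037 to 0.46, limma adjusted *p* = 0.207). *Lrp5*, on chromosome 19 from 3584828 to 3686564, minus strand, was at 41.9, 33.9 and 43.6 FPKM and at 46.8, 45.7 and 68.8, the last in PTH replicate 3. Its log2 fold change of 0.41 had a 95% interval of -0.022 to 0.84 (limma adjusted *p* = 0.167). *Lrp6*, on chromosome 6 from 134446476 to 134566965, minus strand, ranged from 8.85 to 9.85 FPKM with vehicle and from 9.60 to 11.5 with PTH, with overlap, and its interval was -0.093 to 0.45 (limma adjusted *p* = 0.316).

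To see what introduced *Slpi* does to the same genes, *Slpi*-overexpressing MC3T3-E1 cells were set against mock cells. *Slpi* was at 377, 396 and 386 FPKM in the mock libraries and at 2105, 1973 and 1848 in the *Slpi* libraries, a log2 fold change of 2.35 (SE 0.0491), and reads of the vector's cDNA cannot be told apart from those of the cells' own gene. All 10 Wnt pathway genes changed, 6 higher and 4 lower, in a comparison in which 31.9% of all genes tested were higher and 28.9% lower, 60.8% together. No group overlapped the other for any of the 10, beside 34.9% of all genes higher and 32.2% lower without overlap. *Tcf7*, *Axin2*, *Lef1* and *Nkd2* rose at least 2-fold, which 0.733% of all genes did, and none of the 10 fell 2-fold, beside 0.384% of all genes. The median absolute log2 fold change was 0.52 over the 10 genes and 0.20 over all genes tested. *Lef1* and *Nkd2* passed the filter only through the *Slpi* libraries, so that these 2 had to differ if they were tested at all.

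*Tcf7* had the widest difference. Its FPKM was 2.57, 2.17 and 2.28 in mock and 36.6, 40.2 and 33.5 in *Slpi* libraries. The *Slpi* mean was 15.7-fold higher, with a log2 fold change of 3.50 (SE 0.0727, limma adjusted *p* = 3.92e-08), the 5th highest of the 11466 genes tested. *Lef1* was at 0.643, 0.588 and 0.764 FPKM in mock and at 3.46, 3.90 and 3.31 in *Slpi* libraries. This was a 5.35-fold higher mean from a level under 1 FPKM, with a log2 fold change of 1.45 (SE 0.0786, limma adjusted *p* = 4.23e-06). No T cell marker of the 12 reached 1 FPKM in any of these 6 libraries, and 6 of them were listed at 0 in all.

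The repressor-type factor *Tcf7l1* and the related *Tcf7l2* fell in the same cells. *Tcf7l1* was at 40.8, 40.3 and 38.0 FPKM in mock and at 35.3, 32.1 and 32.6 in *Slpi* libraries, with a log2 fold change of -0.25 (SE 0.0464, limma adjusted *p* = 0.0020). *Tcf7l2* was at 13.9, 13.3 and 12.6 FPKM and at 9.84, 9.09 and 10.1, with a log2 fold change of -0.42 (SE 0.0531, limma adjusted *p* = 2.36e-04). Both are small beside the rise of *Tcf7*, although every *Slpi* library lay below every mock library. *Gm15401* was at 0.853 FPKM or less in these 6 libraries.

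All 3 feedback genes rose in *Slpi*-overexpressing cells. *Axin2* went from 2.69, 3.15 and 2.50 FPKM to 10.47, 12.27 and 10.02, a 3.93-fold higher mean with a log2 fold change of 1.66 (SE 0.0876, limma adjusted *p* = 3.94e-06). *Nkd2* went from 0.541, 0.754 and 0.495 FPKM to 2.70, 3.57 and 2.53, with a log2 fold change of 1.30 (SE 0.113, limma adjusted *p* = 3.73e-05). In both genes the highest value of either group was in replicate 2, and the groups were far apart. *Notum* went from 2.55, 2.36 and 2.58 FPKM to 3.83, 4.48 and 3.61, a 1.59-fold higher mean with a log2 fold change of 0.50 (SE 0.0759, limma adjusted *p* = 5.85e-04).

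*Ctnnb1* was at 247, 260 and 254 FPKM in mock and at 310, 302 and 299 in *Slpi* libraries, 1.20-fold higher (log2 fold change 0.26, SE 0.0323, limma adjusted *p* = 2.23e-04). The co-receptors fell. *Lrp5* was at 47.7, 46.1 and 45.9 FPKM in mock and at 32.4, 30.5 and 32.0 in *Slpi* libraries (log2 fold change -0.54, SE 0.0361, limma adjusted *p* = 1.03e-05). *Lrp6* was at 30.6, 29.7 and 31.8 FPKM in mock and at 23.1, 24.9 and 26.0 in *Slpi* libraries (log2 fold change -0.30, SE 0.0490, limma adjusted *p* = 8.66e-04). The transducer thus rose slightly while both co-receptors fell, each with groups that did not overlap, as held for 34.9% of all genes higher and 32.2% lower. The paper reports, from its own measurement, no increase of β-catenin mRNA by SLPI. It does report more β-catenin protein in *Slpi*-overexpressing MC3T3-E1 cells, by mass spectrometry and immunoblot. From RNA-Seq of mock and *Slpi*-overexpressing cells, it also names Wnt/β-catenin signaling among the pathways affected most. The values here are of RNA only.

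**Figure D3:**
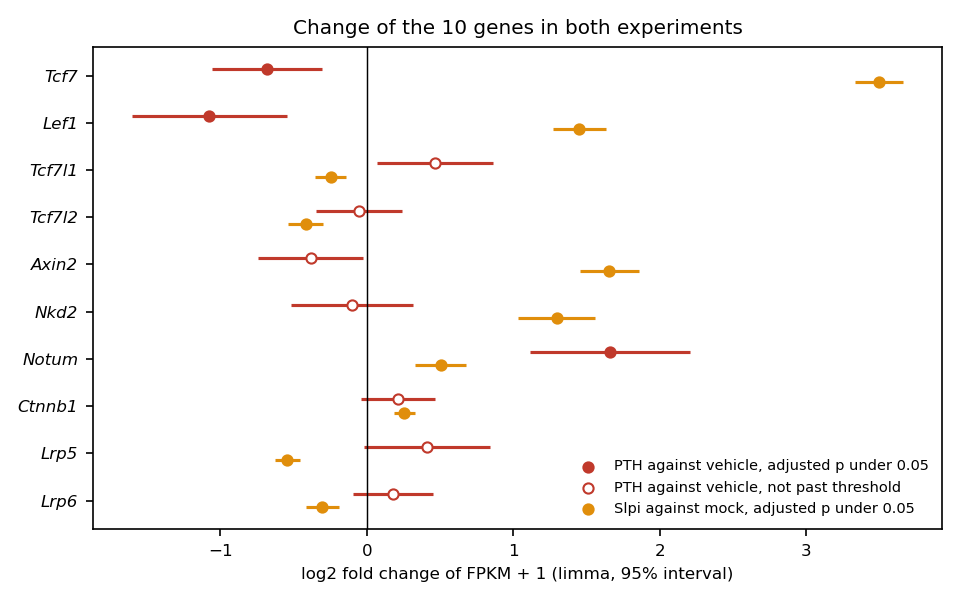
Log2 fold change of FPKM + 1 with its 95% interval from limma, for PTH against vehicle (red) and *Slpi* against mock (orange); filled points have an adjusted *p* under 0.05. *Tcf7* stood at -0.68 with PTH and 3.50 with *Slpi*, and *Lef1* at -1.08 and 1.45; *Notum* is the only gene with a filled point above 0 in both.

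Side by side, *Tcf7* and *Lef1* were lower with PTH and higher with *Slpi*. *Slpi* itself was at means of 2.21 FPKM with vehicle and 28.2 with PTH, and of 386 in mock and 1975 in *Slpi* libraries. *Notum* was higher in both experiments, 3.55-fold and 1.59-fold. *Axin2* and *Nkd2* had log2 fold changes of -0.38 and -0.10 with PTH, neither past the threshold, and of 1.66 and 1.30 with *Slpi*. The difference between the experiments was not tested, because they were normalized separately and differ in cells.

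The make-up of the TCF/LEF family is given as a description, since it restates the levels of the 4 genes. *Tcf7* gave 85.9%, 84.7% and 81.2% of the summed FPKM of the 4 factors in vehicle libraries and 76.9%, 74.5% and 76.8% in PTH libraries. The sum was 89.0 ± 8.81 FPKM for vehicle and 61.0 ± 10.3 for PTH libraries (SD, n = 3 each), without overlap (exact permutation test, two-sided *p* = 0.10, the smallest possible). *Tcf7l1* took 6.85% ± 1.79 of the sum in vehicle libraries and 14.2% ± 0.981 in PTH libraries (SD, n = 3 each). *Tcf7* thus remained the most abundant of the 4 factors in all 6 osteoblast libraries. The level of *Tcf7l1* itself was not called with PTH (limma adjusted *p* = 0.104). The part of T cell transcripts in the lower sum was not tested.

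In mock MC3T3-E1 cells the order was another one. *Tcf7l1* gave 70.5%, 71.5% and 70.9% of the sum and *Tcf7* only 4.43%, 3.85% and 4.26%. In *Slpi* libraries *Tcf7* gave 43.0%, 47.1% and 42.2%, and *Tcf7l1* 41.4%, 37.7% and 41.0%. The level of *Tcf7* divided by that of *Tcf7l1* was 0.0539 to 0.0629 in mock and 1.03 to 1.25 in *Slpi* libraries, whereas it was 9.12 to 14.8 in vehicle and 5.04 to 5.88 in PTH libraries. The family sum was 56.0 ± 2.16 FPKM in mock and 83.3 ± 3.40 in *Slpi* libraries (SD, n = 3 each; exact permutation test, two-sided *p* = 0.10).

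**Figure D4:**
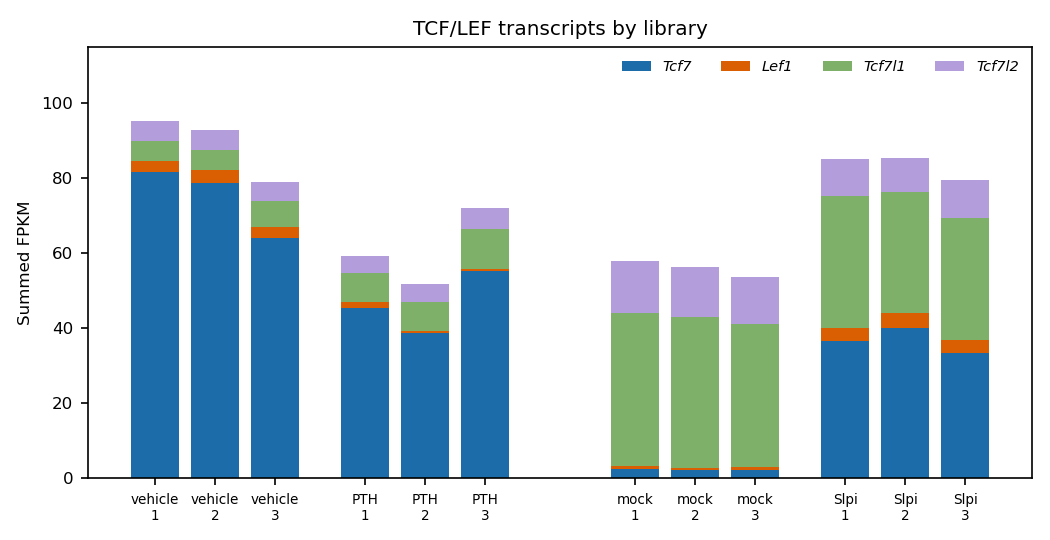
Summed FPKM of the 4 TCF/LEF genes in each of the 12 libraries, as stacked bars. *Tcf7* (blue) made up 74.5% to 85.9% of the bar in osteoblast libraries, at most 4.43% in mock libraries and 42.2% to 47.1% in *Slpi* libraries.

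Of the co-receptors, *Lrp5* was the higher in all 12 libraries. *Lrp5* divided by *Lrp6* was 4.24 ± 0.359 in vehicle libraries and 5.00 ± 1.07 in PTH libraries (SD, n = 3 each; exact permutation test, two-sided *p* = 0.40). It was 1.52 ± 0.0666 in mock and 1.28 ± 0.101 in *Slpi* libraries (SD, n = 3 each; exact permutation test, two-sided *p* = 0.10), where the groups did not overlap.

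A list of 62 other genes of the pathway was set beside the 10, in 4 groups: receptors and co-receptors, dishevelled and the destruction complex, nuclear partners of β-catenin, and further feedback and target genes. With PTH, 55 were tested and 5 rose (9.09%, against 6.38% of all genes tested) and 2 fell (3.64%, against 8.85%). The median log2 fold change of the list was 0.19. *Ccnd1*, which encodes cyclin D1, was at 6.80, 6.42 and 7.33 FPKM with vehicle and at 15.3, 17.9 and 18.8 with PTH (log2 fold change 1.22, SE 0.121, limma adjusted *p* = 0.0131). This was the widest rise of the list, without overlap. *Dkk1*, a secreted inhibitor that binds the LRP co-receptors, and *Twist1*, a transcription factor, rose by 0.60 and 0.67 on the log2 scale (limma adjusted *p* = 0.0304 and 0.0256).

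Among 14 tested receptors, *Ror2*, a receptor tyrosine kinase for Wnt ligands, and the Frizzled *Fzd1* rose with PTH by 0.82 and 0.72 on the log2 scale (limma adjusted *p* = 0.0270 and 0.0211), and none fell. No gene of 15 tested in the destruction complex group was called, and *Dvl3*, which encodes a dishevelled protein, had the smallest *p* there (log2 fold change 0.55, limma adjusted *p* = 0.0673). Of 15 nuclear partners, only *Tle4*, a co-repressor of the Groucho family, changed. It was at 5.97, 4.43 and 2.90 FPKM with vehicle and at 1.29, 2.24 and 0.949 with PTH (log2 fold change -1.12, SE 0.275, limma adjusted *p* = 0.0398). *Rnf43*, a ubiquitin ligase that removes Frizzled from the cell surface, was at 2.40, 2.66 and 1.54 FPKM with vehicle and at 0.682, 0.517 and 0.0816 with PTH (log2 fold change -1.17, SE 0.247, limma adjusted *p* = 0.0287), and passed the filter only through the vehicle libraries, so that it had to differ if it was tested at all. Both were lowest in PTH replicate 3, where the sum of the T cell markers was lowest too, and the part of T cell transcripts in them was not tested. Without vehicle replicate 1 or vehicle replicate 2, no gene of the list was called, and the smallest adjusted *p* of those named, that of *Ccnd1*, was 0.0734 and 0.0736. Without PTH replicate 1 the call of *Ccnd1* alone was kept (adjusted *p* = 0.0425). *Ror2* had 0.0554 without PTH replicate 2 and 0.0519 without PTH replicate 3, which also left *Dkk1* at 0.0528 and *Tle4* at 0.0730.

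In *Slpi*-overexpressing cells, 52 of the 62 genes were tested and 20 rose (38.5%, against 31.9% of all genes tested) and 15 fell (28.8%, against 28.9%). The feedback and target genes had the largest share of rises: of 8 tested, 7 rose and *Wisp2* fell. *Tnfrsf19*, a receptor of the TNF family and known Wnt target, was at 7.09, 7.22 and 6.46 FPKM in mock and at 42.5, 42.9 and 40.8 in *Slpi* libraries (log2 fold change 2.44, SE 0.0474, limma adjusted *p* = 3.21e-08). *Apcdd1*, a membrane inhibitor of Wnt signaling, was at 0.455, 0.392 and 0.487 FPKM in mock and at 6.42, 6.79 and 5.29 in *Slpi* libraries (log2 fold change 2.31, SE 0.0891, limma adjusted *p* = 8.47e-07), and passed the filter only through the latter. *Znrf3*, a ubiquitin ligase related to *Rnf43*, rose by 0.76 on the log2 scale (limma adjusted *p* = 3.38e-05), and *Wisp2*, a CCN family gene, changed by -0.68 (limma adjusted *p* = 5.36e-06). With PTH, the first 3 of these were not called, at log2 fold changes of -0.055, 0.23 and 0.12.

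Of 13 receptors tested in *Slpi*-overexpressing cells, 4 were higher and 5 lower, counts close to the 31.9% and 28.9% of all genes tested. *Lrp4*, a receptor of the LRP family that binds the Wnt inhibitor sclerostin, had the widest rise, with a log2 fold change of 1.06 (SE 0.0524, limma adjusted *p* = 2.97e-06), followed by the DKK1 co-receptor *Kremen1* at 0.67 and *Ror2* at 0.38. *Fzd9*, *Fzd8* and *Fzd1*, all Frizzled receptors, fell, with log2 fold changes of -0.73, -0.53 and -0.42. *Fzd1* was therefore higher with PTH and lower with *Slpi*, each within its own experiment.

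Of 16 genes of dishevelled and the destruction complex, 7 rose and 3 fell, and of 15 nuclear partners 2 rose and 6 fell, beside 31.9% higher and 28.9% lower over all genes tested. The widest rises were those of *Amer1*, *Axin1* and *Dvl2*, with log2 fold changes of 0.21, 0.20 and 0.18, and the widest falls those of *Apc2*, *Btrc* and *Gsk3b*, with -0.59, -0.19 and -0.14. Of the nuclear partners, *Tle1* and *Ctbp2*, both co-repressors, rose by log2 fold changes of 0.24 and 0.13, and the falls were led by *Aes* at -0.48, *Tle2* at -0.46 and *Jup* at -0.37, the last of which passed the filter only through the mock libraries. *Aes* and *Tle2* belong to the Groucho family and *Jup* encodes plakoglobin, a relative of β-catenin. Calls of *Gsk3b*, *Tle1* and *Ctbp2* did not hold when single libraries were left out. The adjusted *p* of *Gsk3b* was 0.0984, 0.0637, 0.0526 and 0.0822 without mock replicate 1, mock replicate 3, *Slpi* replicate 1 and *Slpi* replicate 2. That of *Tle1* was 0.0748, 0.0525, 0.127 and 0.0936 without mock replicates 1, 2 and 3 and *Slpi* replicate 1, and that of *Ctbp2* was 0.138, 0.0769, 0.122 and 0.0960 without mock replicates 1 and 2 and *Slpi* replicates 2 and 3. When FPKM were rescaled to the same sum in each library, which moved the median of all genes to -0.083, 10 genes of the list were higher and 20 lower, and the calls of *Amer1*, *Dvl2*, *Tle1* and *Ctbp2* were lost (adjusted *p* = 0.0799, 0.0882, 0.112 and 0.526), whereas the 10 genes named at the outset kept their calls.

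**Figure D5:**
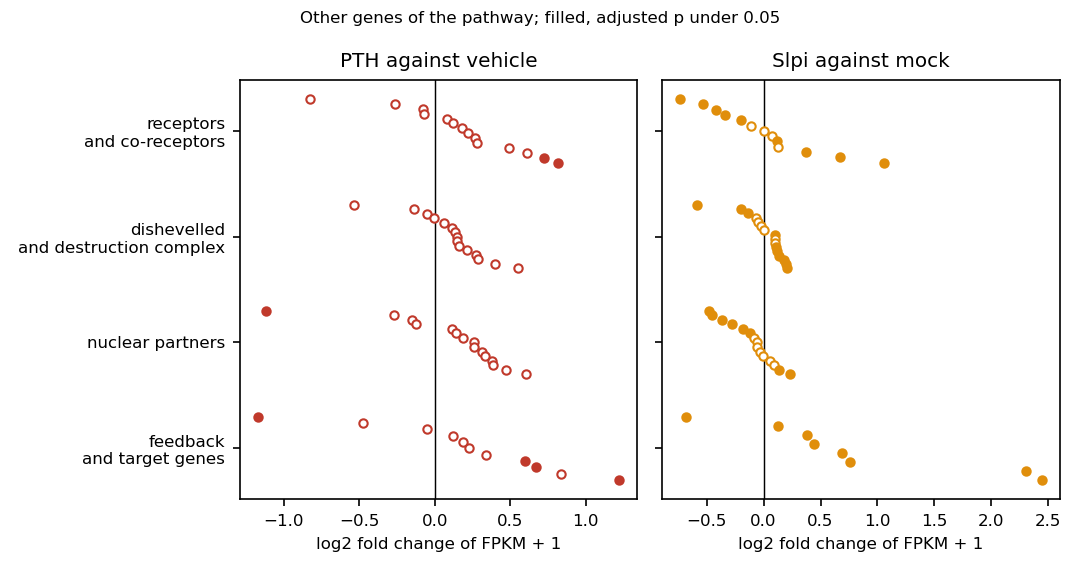
Log2 fold change of FPKM + 1 of the tested genes of the 62-gene pathway list, one point per gene and filled at an adjusted *p* under 0.05, by group of the list. With PTH 5 filled points lie above 0 and 2 below; with *Slpi* 7 of 8 feedback and target genes lie above 0, up to 2.44.

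The genes whose values ran most like those of *Tcf7*, *Lef1* and *Axin2* were sought among 10095 genes tested in both experiments, by Pearson's r over the 12 libraries after each experiment was centred on its own mean. The 12 libraries share 4 groups and a scaling, so that the r values are given as a description. *Tcf7* was most like *Cct2*, a chaperonin subunit, at r = 0.993, then *Ipo5* at 0.988 and *Axin2* at 0.987. *Axin2* was most like *Cct2* at 0.992, *Eif4a1* at 0.990 and *Tcf7* at 0.987. *Lef1* was most like *Rcc2*, *Hspe1* and *Rcc1*, with r of 0.988, 0.982 and 0.980. *Rcc1*, a nuclear exchange factor for Ran, fell with PTH (log2 fold change -0.62, limma adjusted *p* = 0.0290) and rose with *Slpi* (0.96, limma adjusted *p* = 3.58e-06), as *Lef1* did. Such a match follows from the way these genes were picked. *Cct2* and *Rcc2* were also called lower with PTH, whereas *Ipo5*, *Eif4a1* and *Hspe1* were not called (limma adjusted *p* = 0.213, 0.192 and 0.0568).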

How the data were processed

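Expression was measured by RNA-Seq in 6 libraries of sorted osteoblasts and 6 of MC3T3-E1 cells. The authors deposited FPKM per gene and library. Their notes name TopHat2 2.0.13, Bowtie2 2.2.3, SAMtools 0.1.19 and Cufflinks 2.2.1 with mm10; the gene annotation and the scaling option are not given in the sources used here. For MC3T3-E1 libraries the methods name the SMART-Seq v4 kit and the labels a stranded TruSeq kit, which was not resolved.

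The 10 genes, the pathway list, the marker lists and the tests were chosen with earlier results of these data known. Values were transformed to log2(FPKM + 1), genes below an FPKM of 1 in all 6 libraries were dropped, and each experiment was fitted on its own with limma 3.58.1 (eBayes with a trend, no replicate block) in R 4.3.3, with Benjamini-Hochberg adjustment. Exact permutation tests were run in Python 3.11.15 with scipy 1.17.1. Named pathway genes were, in each group of the list, up to 3 per direction with the largest change among those called, or the 1 with the smallest *p* where none was. On simulated data in which 200 genes had a log2 fold change of 2, the fit recovered 191 with 10 false calls among 12532 genes of the osteoblast comparison, and 197 with 8 false calls among 11335 of the MC3T3-E1 comparison. The changed genes were drawn from those with a mean log2(FPKM + 1) above 2 in the vehicle or mock group, with independent normal noise. Smaller changes, lower levels and noise shared by a library were not simulated, so these counts do not measure recovery or false calls for them.

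Genes were placed on GRCm38 (mm10) with GENCODE M21. Depth in reads is unknown, and no counting interval was computed. No batch is given in the labels. Alternatives were a pseudocount of 0.1, no filter, a mean FPKM of at least 1, quantile normalization, rescaling to equal sums, no trend, an unmoderated model, a replicate block and leaving out each library. Rescaling without *Col1a1* and *Col1a2* was added after seeing the data. All 12 libraries enter the reported values.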

Additional observations from a re-analysis of the deposited data

How the results depend on the processing

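In MC3T3-E1 cells, all 10 genes kept their direction and their call under each of 15 alternatives, including each left-out library; 10 in place of 20 pathway genes were higher after rescaling to equal sums with or without *Col1a1* and *Col1a2*, and 2430 and 2433 in place of 3658 of all genes. In osteoblasts, *Notum* was called under 12 of 15 alternatives, *Lef1* under 10 and *Tcf7* under 7, all in the reported direction, with log2 fold changes from 1.45 to 1.83, -1.68 to -0.92 and -0.87 to -0.56. Counts of the 10 genes that were lower with PTH were 1 without the filter, without the trend and with the replicate block, in place of 2, and counts of lower pathway genes were 1 with a pseudocount of 0.1 and without the filter. The unmoderated model called 0 of the 10 genes and 0 pathway genes in either direction, and 0 higher and 1 lower of all genes, with 3823 at an unadjusted *p* under 0.05. All genes higher with PTH were 517 without the filter, 529 after rescaling and 400 after rescaling without *Col1a1* and *Col1a2*, in place of 830; the share of higher among called genes was 41.9%, against 31.5% and 20.7% after the 2 rescalings, and 52.5% against 35.4% for *Slpi*. The median of all genes moved to -0.043 and -0.155 with PTH. *Tcf7l2* turned from -0.06 to 0.032 with quantile normalization and ranged from -0.12 to 0.0044 when 1 library was left out, the latter without PTH replicate 1, and *Ctnnb1* from 0.21 to -0.11 with quantile normalization, none of them called. Leaving out 1 library at a time, higher and lower counts with PTH ranged from 0 to 1 and 0 to 2 for the 10 genes, from 0 to 5 and 0 to 3 for pathway genes, and from 0 to 674 and 0 to 895 for all genes; the lowest came without vehicle replicate 1 or vehicle replicate 2, where 3181 and 3053 genes had an unadjusted *p* under 0.05. The cause was not tested. After centring on the group mean, same-numbered libraries correlated at 0.029, 0.074 and 0.102 in osteoblasts, and differently numbered ones at -0.116 to 0.0688. In MC3T3-E1 cells same-numbered libraries correlated at 0.039, -0.052 and -0.00026, and differently numbered ones at -0.0988 to 0.105. Values this low do not settle whether replicate numbers pair the samples. With the replicate block, 2 of the 10 genes were higher with PTH (*Tcf7l1* was added, adjusted *p* = 0.0473) and 1 lower (*Tcf7* had 0.0542), with 1028 higher and 1234 lower over all genes. Depth in reads was unknown and limits what low values such as those of *Lef1* with PTH can show.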
